A study of Danio rerio with 40 samples.

Results

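The comparison described here is the response of whole zebrafish embryos at 2 days post fertilization (dpf) to about 1 day of calcitriol, the active form of vitamin D. It rests on 10 of the study's 40 poly-A RNA-seq libraries, the 5 of calcitriol-treated and the 5 of vehicle-treated embryos of that age, and on all 14267 genes of the deposited count table. The libraries were chosen by their labelled age and treatment, not by any measured value. All embryos were Segrest wild type, a laboratory strain without an engineered allele. Treated sets of 25 to 30 embryos received 300 pM of 1α,25(OH)2D3 (calcitriol) in ethanol from 24 h after fertilization, and the vehicle sets received the same volume of ethanol alone. Both groups were kept in 0.003% 1-phenyl-2-thiourea, which blocks pigment formation, so that compound is present in treated embryos and controls alike. The study repeated the comparison at 4, 6 and 7 dpf with 5 treated and 5 vehicle libraries at each age, and each age has its own vehicle libraries. By the labels, treatment began at 24 h at every age, so age and length of exposure rise together and cannot be told apart. The protocol also mentions 6 dpf larvae exposed for 24 h, and no library is marked as belonging to that experiment. The labels do not say whether the 5 sets of a group came from separate clutches, so p-values here measure the spread between these libraries, which may be partly technical. RNA came from whole embryos, in which fewer cells of a type and less RNA per cell cannot be told apart.

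Calcitriol enters cells and binds the vitamin D receptor, a nuclear receptor that pairs with a retinoid X receptor on DNA and recruits coactivators or corepressors at target genes. A classical target is cyp24a1, which encodes the mitochondrial 24-hydroxylase that inactivates calcitriol and so limits the hormone's own signal. In adult vertebrates the pathway is best known for raising calcium and phosphate uptake and for its actions on bone, the parathyroid axis and kidney, and in fish also on the ionocytes of the skin and gills. An embryo of this age lives on yolk and has not yet ossified its skeleton.

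Depth was high. Total counts ranged from 78054581 to 179151258 per library, and 13538 to 13781 of the 14267 genes had at least 1 count. The 10 libraries were grouped into 3 sets that each held both treatments. Set A was vehicle replicate 1 and treated replicate 5, the 2 shallowest libraries (81298182 and 78054581 counts, against at least 143225170 in the others). Set B was vehicle replicates 2 and 3 with treated replicates 1 and 2, and set C was vehicle replicates 4 and 5 with treated replicates 3 and 4. The header of the deposited exon table gives only numbers, of which number 1 is set A. Set B joins numbers 2 and 3, and set C joins numbers 4 and 5, because these libraries were close to each other within a group. The first 2 principal components (41.2% and 18.9% of the variance) separated the sets and not the treatments, which that choice in part makes likely. Results are given without a block and, where it matters, with the 3 library sets as a block.

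The response that passed the test at 2 dpf was 1 gene without a block and 8 genes with the 3 library sets as a block. Of 13203 genes with enough counts to test, edgeR's quasi-likelihood test with Benjamini-Hochberg adjustment called only cyp24a1 without a block. This is 0.00757% of the genes tested. An unadjusted p under 0.05 was reached by 110 genes (0.833%). A calibrated test gives a share of about 0.05 with no response, so the fit without a block was conservative. In 32 genes (0.242%) all 5 libraries of a group lay above all 5 of the other, 21 of them higher in treated embryos (0.159%) and 11 lower (0.0833%).

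The gene cyp24a1 (chromosome 6 in the deposited gene identifiers) stood at 1.64, 3.89, 3.87, 3.88 and 2.29 CPM (counts per 1000000 library counts, scaled by TMM) in vehicle replicates 1 to 5. It stood at 20.3, 28.2, 27.3, 21.7 and 8.52 CPM in treated replicates 1 to 5. The lowest treated library lay above the highest vehicle library, and the lowest library of each group was the shallow library of set A. In raw counts this is 130 to 603 per vehicle library against 629 to 4872 per treated library.

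Group means were 3.11 ± 1.07 CPM with vehicle and 21.2 ± 7.87 CPM with calcitriol (SD, n = 5 each). The fitted log2 fold change was 2.76 ± 0.31 (SE), a 6.77-fold rise with a 95% interval of 4.24- to 10.8-fold, and edgeR's adjusted p was 0.0281. An exact two-sided permutation test of the mean log2 CPM gave p = 0.00794, the smallest value that 5 against 5 libraries allow. The ratio of means held within every library set, at 5.20-fold in set A, 6.25-fold in set B and 7.95-fold in set C. All 5 exons that the exon table names for cyp24a1 were higher in treated embryos without overlap between the groups, by 5.40- to 7.41-fold.

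In the fit with the 3 sets as a block, the log2 fold change of cyp24a1 was 2.75 ± 0.16, with an edgeR adjusted p of 0.000275. That fit counted the close libraries of sets B and C as separate units, so its standard error and p may be too small. With the 5 exon-table numbers as a block, the adjusted p was 2.10e-06. Without a block the call depended on single libraries. Leaving out any 1 library except treated replicate 5 raised edgeR's adjusted p above 0.05 in 9 of 10 cases, to at most 0.158, while the log2 fold change stayed between 2.61 and 2.96. Without both shallow libraries of set A it was 2.80 ± 0.18, with an adjusted p of 0.000583. Summing the close libraries of sets B and C into 3 units per group gave 2.74 ± 0.43 and an adjusted p of 1.0.

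**Figure D1:**
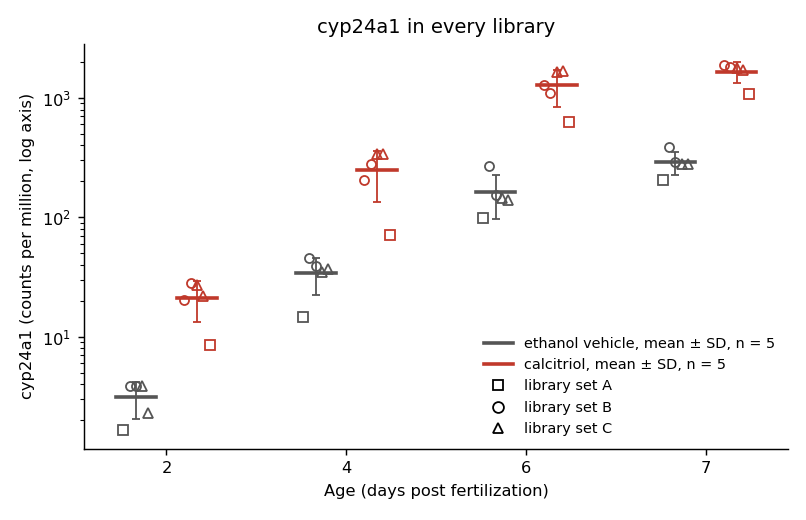
Level of cyp24a1 in each of the 40 libraries (CPM, log axis) by age, with group means and SD (bars) over 5 libraries and symbols for the library set. At 2 dpf the treated libraries sit between 8.52 and 28.2 and the vehicle libraries between 1.64 and 3.89, and the set A library is the lowest of its group at every age.

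No other well measured gene approached this size. Among the 9866 genes with a mean of at least 2 on the log2 CPM scale, cyp24a1 was the only gene past 2-fold, and 8 genes in all had a fitted change past 1.5-fold. The 4 genes nearest to it by size, all of them lower with calcitriol, are named here after their values were seen. The neuronal activity gene npas4 was at 4.59, 6.59, 15.0, 22.4 and 14.2 CPM in the vehicle libraries and at 4.32, 6.55, 7.80, 9.54 and 4.70 CPM in the treated libraries, in replicate order. These ranges overlapped, and its fitted log2 difference of -0.93 ± 0.37 did not pass edgeR's test (adjusted p = 1.00). The immediate early gene fos, induced within minutes by many stimuli, ranged from 6.30 to 181 CPM among vehicle libraries alone, with a log2 difference of -0.79 ± 0.72 that did not pass. The genes zgc-92851 and zgc-175128, given no role here, differed by -0.89 ± 0.48 and -0.71 ± 0.41 with overlapping groups, and did not pass either.

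**Figure D2:**
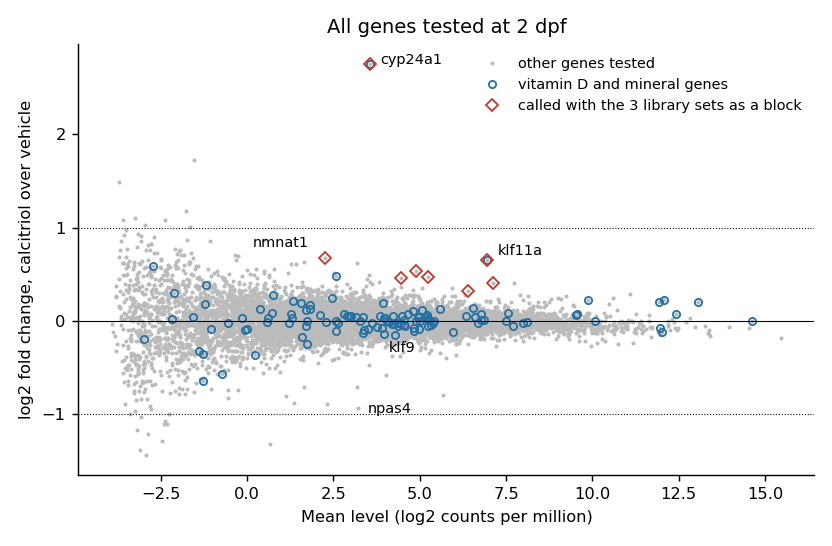
Log2 fold change at 2 dpf, calcitriol over vehicle, against mean level (log2 CPM) for the 13203 genes tested, with vitamin D and mineral genes circled and genes called with the library sets as a block marked by diamonds. The gene cyp24a1 lies alone at 2.76, klf11a is at 0.65, and the dotted lines mark a 2-fold change.

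The precision of the fit bounds what could have been missed. The median standard error of a log2 fold change was 0.145 over all genes tested, and 0.076 with the library sets as a block. For 12425 genes (94.1%) the 95% interval lay wholly inside a 2-fold change either way, and for 10486 genes (79.4%) it lay inside 1.5-fold. With the block, which counts the close libraries of sets B and C as separate units, 12642 genes (95.8%) were bounded within 2-fold. Among the 9866 genes at a mean of at least 2 on the log2 CPM scale, 99.4% were bounded within 2-fold without any block. An interval inside 2-fold bounds the size of a change and does not mean that a 2-fold change would have been called. Changes inside these bounds may remain, and a p that missed the threshold does not show that a gene was unaffected.

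A small group of further genes passed when the library sets were blocked. That fit called 8 genes (0.0606% of those tested), all higher in treated embryos: cyp24a1, klf11a, hmga1b, si-ch73-46j18.5, slc16a12b, nmnat1, frem2b and zgc-113054. The 7 besides cyp24a1 had log2 fold changes of 0.32 to 0.69 and were not called without the block. They were each higher in the treated library of all 5 exon-table numbers, which their choice by this fit makes likely and is no separate support. They are named here because the block called them, after their values were seen. The unadjusted share under 0.05 in this fit was 5.97% of genes, near the share of 0.05 that a calibrated test gives with no response.

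By the blocked fit the largest of the 7 was klf11a, which encodes a zinc finger transcription factor of the Krüppel-like family. It was at 43.6, 122.9, 111.1, 118.9 and 106.1 CPM in vehicle replicates 1 to 5 and at 147.9, 189.5, 188.7, 179.8 and 87.0 CPM in treated replicates 1 to 5. Treated replicate 5 lay below 4 of the vehicle libraries but above vehicle replicate 1, its partner in set A, by 1.00 on the log2 scale. Every other treated library lay above every vehicle library. With the sets as a block the log2 fold change was 0.69 ± 0.08 (95% interval 0.51 to 0.87, adjusted p = 0.0107), against 0.65 ± 0.27 and an adjusted p of 1.00 without it.

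The gene hmga1b encodes a chromatin protein of the high mobility group with AT-hook DNA-binding motifs. It was at 25.7, 39.1, 35.2, 31.8 and 32.3 CPM in the vehicle libraries and at 42.8, 50.9, 47.1, 48.4 and 38.6 CPM in the treated ones. The groups overlapped only through treated replicate 5, which lay just under vehicle replicate 2. Its log2 fold change was 0.48 ± 0.06 with the block (adjusted p = 0.0115) and 0.47 ± 0.12 without it (adjusted p = 1.00).

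The remaining 5 had smaller log2 changes than klf11a with the block. Without it nmnat1 stood at 0.67 ± 0.29, beside 0.65 ± 0.27 for klf11a. The uncharacterized gene si-ch73-46j18.5 rose by 0.41 ± 0.06 on the log2 scale with the block (adjusted p = 0.0115). The gene slc16a12b, of the monocarboxylate transporter family, rose by 0.50 ± 0.08 (adjusted p = 0.0364), and nmnat1, which makes NAD in the nucleus, rose by 0.65 ± 0.10 (adjusted p = 0.0373). For nmnat1 the vehicle libraries were at 1.87 to 4.51 CPM and the treated libraries at 2.74 to 8.65 CPM, with set A lowest in both groups. The basement membrane gene frem2b rose by 0.32 ± 0.05 and zgc-113054 by 0.45 ± 0.07 (adjusted p = 0.0410 for each in edgeR). Of the 7, zgc-113054 alone had no overlap between groups, with 18.2 to 21.0 CPM in vehicle and 22.6 to 31.4 CPM in treated libraries.

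**Figure D3:**
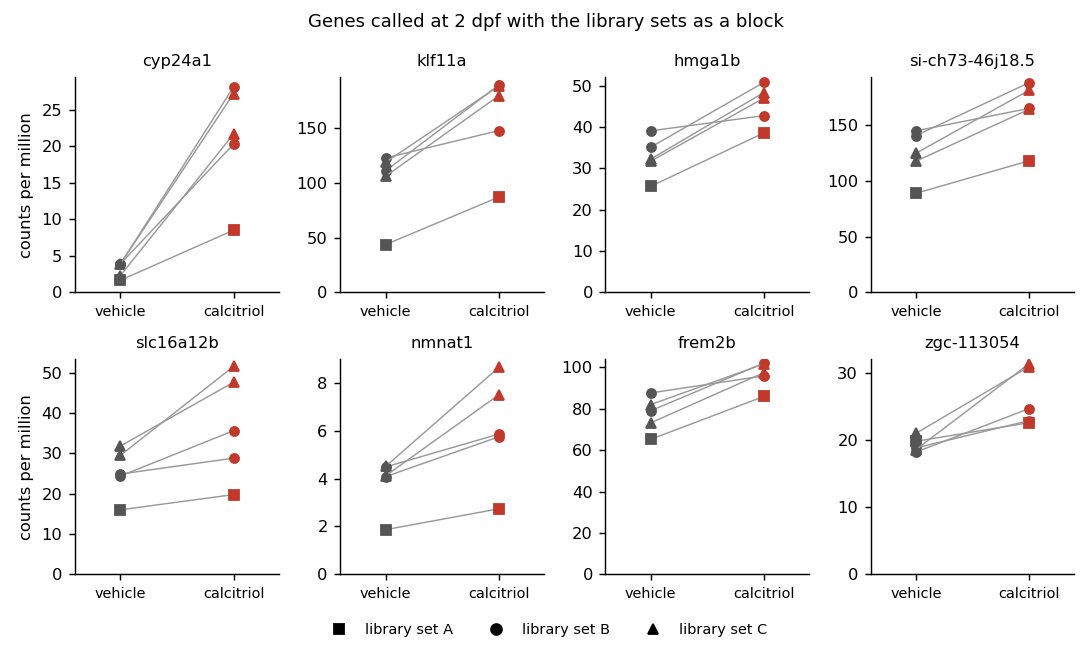
Level (CPM, axes from 0) of the 8 genes called with the 3 library sets as a block, in the 5 vehicle and 5 treated libraries, with lines joining libraries that carry the same number in the exon table. Every line rises in all 8 genes, which the blocked fit of these same libraries had picked. For klf11a the set A pair runs from 43.6 to 87.0 below the other 4 pairs.

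These 7 calls are less firm than that for cyp24a1. The 3-set fit counted the close libraries of sets B and C as separate units, so its p-values may be too small. A fit that summed those libraries, without a block, called 0 genes. It lost cyp24a1 as well, so it does not set the 7 apart from that gene. With the 5 numbers as a block in place of 3 sets, edgeR called cyp24a1 alone, and the adjusted p of klf11a was 0.0535 and that of hmga1b 0.0731. Leaving out each library in turn from the 3-set fit left between 1 and 11 calls, with klf11a and hmga1b called in 4 of 10 such fits, and 1 call was left without set A. With the same 3 sets as a block and all libraries, all 7 were also called by DESeq2 (adjusted p at most 8.38e-05) and by voom (at most 0.0318). Those fits too counted the close libraries as separate units.

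The same 7 genes can be read at later ages, in libraries that the 2 dpf fit did not use. The exon-table numbers recur at every age, and the labels do not say what they mark, so the ages may not be independent. At 4 dpf the response of all 7 was above 0, with none called (0.0% of genes were). All 7 were called higher at 6 dpf, where 4.37% of genes were called higher and 6.32% lower, and all 7 at 7 dpf, where 14.6% were. The response was larger at 6 dpf than at 2 dpf in 3 of them by the test of the difference, where age and length of exposure both differ. For klf11a the log2 fold change at 6 dpf was 2.35 ± 0.17, and the difference from 2 dpf was 1.68 ± 0.32 (edgeR adjusted p = 0.00145). For hmga1b it was 1.23 ± 0.08 at 6 dpf with a difference of 0.74 ± 0.14 (adjusted p = 0.0011), and for si-ch73-46j18.5 the difference was 0.95 ± 0.27 (adjusted p = 0.0474). For nmnat1, frem2b, zgc-113054 and slc16a12b that difference did not pass, with values of -0.16 ± 0.27, -0.03 ± 0.13, 0.08 ± 0.14 and 0.68 ± 0.31.

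Genes without overlap between the groups were examined by a rule of size. The 32 such genes made up 0.242% of those tested. In the exact permutation test, random labels over all libraries separate the groups with a probability of 0.00794. That value ignores the library sets, each of which holds both treatments, so it cannot serve as the share to be had without a response. Separation alone is not taken here as a sign of a response. Of the 32, those with the largest changes among well measured, named genes beside cyp24a1 showed small differences. The water channel gene aqp8a.1 was at 10.0 to 11.9 CPM in vehicle and 12.8 to 15.6 CPM in treated libraries (log2 difference 0.40 ± 0.09). The slow muscle gene mybpc1, which encodes a myosin-binding protein, was 0.35 ± 0.11 higher, and kera, for the corneal proteoglycan keratocan, was 0.35 ± 0.10 higher. The secreted C1q-domain gene c1qtnf5 was 0.31 ± 0.09 higher.

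In the other direction, pdcd4b, whose mammalian homologue restrains translation, was at 68.8 to 85.5 CPM in vehicle and 52.3 to 64.1 CPM in treated libraries. Its log2 difference was -0.36 ± 0.09. The coenzyme A synthesis gene pank1a differed by -0.24 ± 0.09. None of these 6 passed edgeR's test with or without the block of sets, and the lowest adjusted p with the block was 0.0810, for aqp8a.1. At 6 dpf pdcd4b was called lower and c1qtnf5 higher, kera was called in the opposite direction (log2 fold change -0.96 ± 0.26, adjusted p = 0.035), and the other 3 were not called.

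The receptors themselves did not differ measurably. The vitamin D receptor gene vdra was at 6.24, 9.23, 10.5, 14.3 and 14.6 CPM in vehicle replicates 1 to 5 and at 9.81, 10.5, 11.5, 12.9 and 5.66 CPM in treated replicates 1 to 5. The groups overlapped almost wholly, and the log2 difference was -0.13 ± 0.25 (95% interval -0.66 to 0.41), or -0.11 ± 0.07 (-0.27 to 0.05) with the sets as a block. The second receptor gene vdrb was at 7.75 to 13.4 CPM in vehicle and 8.17 to 12.7 CPM in treated libraries, with a log2 difference of -0.10 ± 0.16 (-0.44 to 0.25).

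Their partners were as flat. The retinoid X receptor genes rxraa, rxrab, rxrba, rxrbb, rxrga and rxrgb, which supply the partner in the DNA-binding dimer, had log2 differences of -0.02, 0.00, 0.01, 0.05, 0.00 and 0.05. The corepressor ncor1 was at -0.01, the coactivator ncoa2 at 0.01 and pdia3, a disulfide isomerase also described as a calcitriol-binding protein, at -0.05. All 11 genes of this list had a 95% interval inside 2-fold, 5 of the 11 were above 0 (46.5% of all genes tested were), and none was called. The widest interval of the 11 was that of vdra.

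Among the genes of vitamin D metabolism and transport, cyp24a1 was the only 1 of 11 called. The gene dhcr7 encodes the reductase that competes for the skin precursor of vitamin D, and it differed by -0.03 ± 0.17. The endocytic receptor lrp2 (megalin), which takes up the vitamin D binding protein in kidney, differed by 0.14 ± 0.10, and its adaptor dab2 by 0.02 ± 0.10. The steroidogenic genes cyp11a1 and fdx1b differed by 0.02 ± 0.39 and 0.03 ± 0.19.

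The drug- and steroid-metabolizing cytochrome genes cyp3a65, cyp3c1 and cyp3c4 differed by -0.01 ± 0.23, 0.05 ± 0.19 and 0.18 ± 0.21. In mammals the related CYP3A enzymes can be induced by calcitriol. Besides cyp24a1, 2 members had a 95% interval that reached past 2-fold, and both were expressed at low levels. For cyp3c1l2 the log2 difference was -0.64 ± 0.40 (95% interval -1.50 to 0.22). For gc, which encodes the vitamin D binding protein of plasma, vehicle libraries had 10 to 96 counts and treated libraries 18 to 68, and the difference was -0.32 ± 0.36 (-1.11 to 0.47).

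Of 26 tested genes on a list of vitamin D targets of mammals and their relatives, cyp24a1 was called, klf11a joined it with the block, and 12 were above 0. The list was chosen with earlier results of these data known, so these calls are not independent support. The gene calb2a, from the calbindin family of calcium-buffering proteins, differed by -0.15 ± 0.10, and calb1 had no match in the count table. The plasma membrane calcium pump atp2b1a differed by -0.02 ± 0.10 and the Wnt coreceptor lrp5 by 0.07 ± 0.10. The binding proteins igfbp1a and igfbp1b, which hold insulin-like growth factors, differed by 0.05 ± 0.24 and 0.06 ± 0.25.

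Another member, klf9, a Krüppel-like factor gene that also answers to glucocorticoid and thyroid hormone, could not be judged without the block. It had 21 counts in vehicle replicate 1 and 37 in treated replicate 5, the 2 libraries of set A, against 2040 to 4609 in the other 4 vehicle and 2104 to 3578 in the other 4 treated libraries. Its log2 difference was -0.08 ± 0.86, and -0.01 ± 0.26 (95% interval -0.62 to 0.60) with the sets as a block. It is singled out here after its values were seen.

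Genes of calcium handling showed no call among 37 tested, 35 of which were bounded within 2-fold, with a median log2 difference of -0.02 (-0.01 over all genes tested). The epithelial calcium channel trpv6, a classical intestinal target of the hormone in mammals, was at 1.99, 1.95, 2.37, 3.14 and 2.62 CPM in vehicle replicates 1 to 5 and at 2.52, 2.39, 2.59, 2.74 and 1.68 CPM in treated replicates 1 to 5. The groups overlapped throughout. Its log2 difference was -0.02 ± 0.17 (95% interval -0.40 to 0.36), and the gene was picked out for its role after its value was seen.

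Among the hormones and regulators, parathyroid hormone gene pth1a was at 0.384 to 0.973 CPM in vehicle and 0.212 to 0.711 CPM in treated libraries. Its log2 difference was -0.57 ± 0.34 (95% interval -1.30 to 0.16). Calcitriol represses the parathyroid hormone gene in mammals, and here the interval included 0. The calcium-lowering hormone gene stc1 had only 18 to 72 counts per vehicle library and 27 to 94 per treated library. It differed by 0.39 ± 0.27 (95% interval -0.19 to 0.97), and its relative stc2 by -0.02 ± 0.16. A transcription factor gene needed for parathyroid cells and for some ionocytes, gcm2, differed by -0.25 ± 0.13 (-0.54 to 0.04).

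The parathyroid hormone-related gene pthrp2 had 0 counts in all 10 libraries, which allows up to 0.0167 to 0.0384 CPM per library at 3 counts, and was not tested. The named calcium-handling genes of muscle were bounded within 2-fold. The calcium pump of the sarcoplasmic reticulum, atp2a1, differed by 0.00 ± 0.10, and the parvalbumins pvalb1 and pvalb2 by -0.12 ± 0.17 and -0.07 ± 0.22.

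None of 17 phosphate-handling genes was called, 15 were bounded within 2-fold and 7 were above 0. The phosphate transporters slc20a1b and slc25a3b differed by -0.03 ± 0.10 and 0.00 ± 0.09. The related slc25a3a differed by -0.37 ± 0.20, the largest in this list. The sodium-phosphate cotransporter slc34a2a had too few counts to bound it (0.30 ± 0.49).

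The phosphate-lowering hormone fgf23, which calcitriol induces in mammalian bone, had 7 to 33 counts per vehicle library and 8 to 27 per treated library. Its log2 difference of -0.19 ± 0.43 (95% interval -1.12 to 0.74) leaves a 2-fold fall undecided. The peptidase gene phex differed by -0.04 ± 0.14, the pyrophosphate-generating enzyme enpp1 by -0.09 ± 0.08 and the secretory pathway pseudokinase fam20a by 0.25 ± 0.21.

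None of 31 bone and matrix genes was called either, and 27 were bounded within 2-fold. Their direction was one-sided: 26 of 31 were above 0, with a median log2 difference of 0.07, where 46.5% of all genes tested were above 0 and their median was -0.01. The fibrillar collagens col1a1a, col1a1b and col2a1a differed by 0.20 ± 0.19, 0.23 ± 0.19 and 0.08 ± 0.15, and the matrix protein postn by 0.23 ± 0.11. The elastin gene elna differed by 0.48 ± 0.31, or 0.53 ± 0.10 with the sets as a block (adjusted p = 0.0907). The signals bmp2b and ihhb differed by -0.14 ± 0.09 and 0.20 ± 0.15.

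Osteoblast regulators were low and variable. The transcription factor runx2b ranged from 0.996 to 4.83 CPM in vehicle and from 1.68 to 6.15 CPM in treated libraries (0.17 ± 0.41), lowest in set A in both groups. The later osteoblast factor sp7 differed by 0.21 ± 0.26, and mgp, an inhibitor of calcification, by -0.09 ± 0.25.

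Over the 6 vitamin D and mineral lists together, 117 distinct genes were tested. Without cyp24a1, none of 116 was called in the fit without a block, and 1, klf11a, was called with the sets as a block. Without the block their log2 differences ran from -0.64 to 0.65 with a median of 0.01. In that fit 104 (89.7%) were bounded within 2-fold, beside 94.1% of all genes. The 13 genes of the 117 that were not so bounded include cyp24a1 itself, and 9 of the 13 had a mean under 2 on the log2 CPM scale. Of the same 117 genes, 15 were called higher and 13 lower at 6 dpf, and 20 higher and 30 lower at 7 dpf. Across all genes tested, 10.7% were called at 6 dpf and 28.8% at 7 dpf. The lists were chosen with earlier results of these data known, so these later counts say nothing of the lists as a group.

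**Figure D4:**
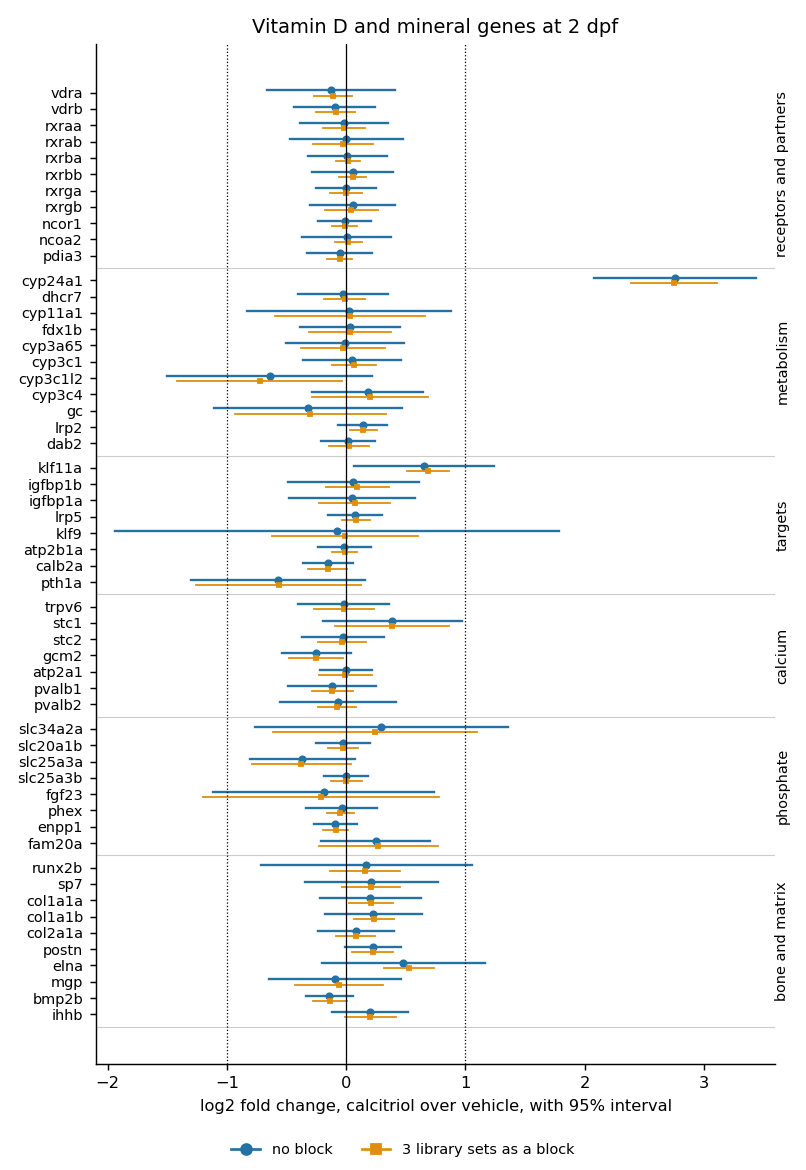
Log2 fold change at 2 dpf, calcitriol over vehicle, with 95% intervals for vitamin D and mineral genes by role, without a block (blue circles) and with the 3 library sets as a block (orange squares). The interval of cyp24a1 lies wholly above the dotted line at a 2-fold rise, and those of klf9, fgf23 and gc, among others, reach past a 2-fold fall without the block.

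Tissue lists served as a check on the makeup of the samples. No member of the lists for hatching gland, erythrocytes, skeletal muscle, lens, neurons, epidermis, liver and yolk, retina, ionocytes, stress response or cell cycle was called, with or without the block. The hatching enzyme gene he1a, which marks the gland that is active at this age, was at 111 ± 37.7 CPM with vehicle and 107 ± 25.4 CPM with calcitriol (SD, n = 5). The embryonic globin hbae3 differed by -0.09 ± 0.15, the epidermal keratin krt4 by -0.08 ± 0.11 and the cardiac and skeletal actin actc1b by -0.18 ± 0.10. The only gene of these lists without overlap between the groups was si-dkeyp-113d7.4, another gene of the epidermis list. It was at 1861 to 2141 CPM in vehicle and 2247 to 2776 CPM in treated libraries, a log2 difference of 0.29 ± 0.09 with an edgeR adjusted p of 1.00, or 0.319 with the sets as a block.

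Some lists leaned to a side without a call. Only 4 of 22 muscle genes were above 0 (median -0.08), and their summed level was 145141 to 180143 CPM in vehicle and 137922 to 161245 CPM in treated libraries. Only 2 of 13 lens genes were above 0 (median -0.07), with sums of 4465 to 6456 and 4817 to 6074 CPM. Cell cycle genes (3 of 17 above 0) and erythrocyte genes (3 of 12) also leaned down. Ionocyte genes (16 of 22) and liver and yolk genes (12 of 16) leaned up, and the other tissue lists lay between. The sums overlapped between groups in every list. The part that tissue makeup has in the lean of the bone and matrix genes was not tested. In the liver and yolk list, rbp4, the plasma retinol carrier, had the smallest unadjusted p, with a log2 difference of 0.27 ± 0.11 and an adjusted p of 1.00.

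Later ages give the scale of what the 2 dpf embryos had not yet shown. The cyp24a1 fold change at later ages was not called different from that at 2 dpf, while its level in both groups lay above the 2 dpf range at every later age. Its vehicle level was 34.2 ± 11.8 CPM at 4 dpf, 162 ± 64.9 CPM at 6 dpf and 289 ± 64.6 CPM at 7 dpf (SD, n = 5). The fold was 7.22 at 4 dpf (adjusted p = 0.0981), 7.97 at 6 dpf (adjusted p = 0.000159) and 5.77 at 7 dpf (adjusted p = 3.79e-06), while the level in treated embryos went from 21.2 to 1661 CPM.

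On the log2 scale the response at 4, 6 and 7 dpf differed from that at 2 dpf by 0.09, 0.21 and -0.24, each ± 0.48. None of these differences passed the test. Their 95% intervals were -0.88 to 1.05, -0.75 to 1.18 and -1.20 to 0.72, so a 2-fold change of the response with age was not excluded without the block. With library sets as a block within each age, the first of these differences was 0.01 ± 0.27 (-0.53 to 0.56). The number of genes whose response differed from that at 2 dpf was 0 at 4 dpf (0.0% of 13650), 332 at 6 dpf (2.43%) and 1653 at 7 dpf (12.1%). With the sets as a block within each age, it was 34 (0.249%), 1790 (13.1%) and 4907 (35.9%).

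Genes called at 6 dpf leaned only slightly the same way at 2 dpf. Of the 1383 such genes tested at 2 dpf, 760 (55.0%) had the same sign. The ages share no library, but the library sets recur at every age, so the ages may not be independent. Of 572 genes higher at 6 dpf, 355 (62.1%) were above 0 at 2 dpf, beside 46.5% of all genes, with a median of 0.03. Of 811 genes lower at 6 dpf, 405 (49.9%) were below 0 at 2 dpf, beside 53.5% of all genes, with a median of 0.00. Of the 3768 genes called at 7 dpf, 55.1% had the same sign at 2 dpf.

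The genes with the largest changes at 6 dpf show the same contrast. The 9 besides cyp24a1 that rose most at 6 dpf, by 1.39 to 2.89 on the log2 scale, stood between -0.12 and 0.65 at 2 dpf with a median of 0.06. The gene igfbp1b was at 2.92 to 6.22 CPM in vehicle and 2.93 to 6.07 CPM in treated libraries at 2 dpf, a log2 difference of 0.06 ± 0.25, and reached 2.89 ± 0.30 at 6 dpf (difference 2.81 ± 0.57, adjusted p = 0.00317). The amino acid transporter gene slc1a4 stood at 0.35 ± 0.10 at 2 dpf, or 0.35 ± 0.06 with the sets as a block (adjusted p = 0.0904), and at 1.43 ± 0.22 at 6 dpf. The tyrosine catabolism gene tat stood at -0.10 ± 0.21 and the peptide hormone gene adm2 at 0.28 ± 0.20 at 2 dpf.

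The 10 genes that fell most at 6 dpf, by 1.83 to 2.51 on the log2 scale, stood between -0.65 and 0.59 at 2 dpf. Their median there was 0.10, and 4 of the 10 were below 0. The 10 include plasma proteins of liver and yolk. The carboxylesterase gene ces3 stood at 0.11 ± 0.22 at 2 dpf, the iron carrier tfa at 0.21 ± 0.16, the coagulation factor f7i at 0.11 ± 0.22, the complement gene c3b at -0.06 ± 0.26 and ahsg (fetuin A) at 0.59 ± 0.49. The epidermal keratin cyt1l stood at -0.24 ± 0.12. Among the genes with the smallest p for the difference between 2 and 6 dpf were insulin (ins), at 0.16 ± 0.19 at 2 dpf, the retinol receptor stra6, at 0.06 ± 0.08, and the growth-promoting transcription factor mycn, at -0.07 ± 0.10.

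**Figure D5:**
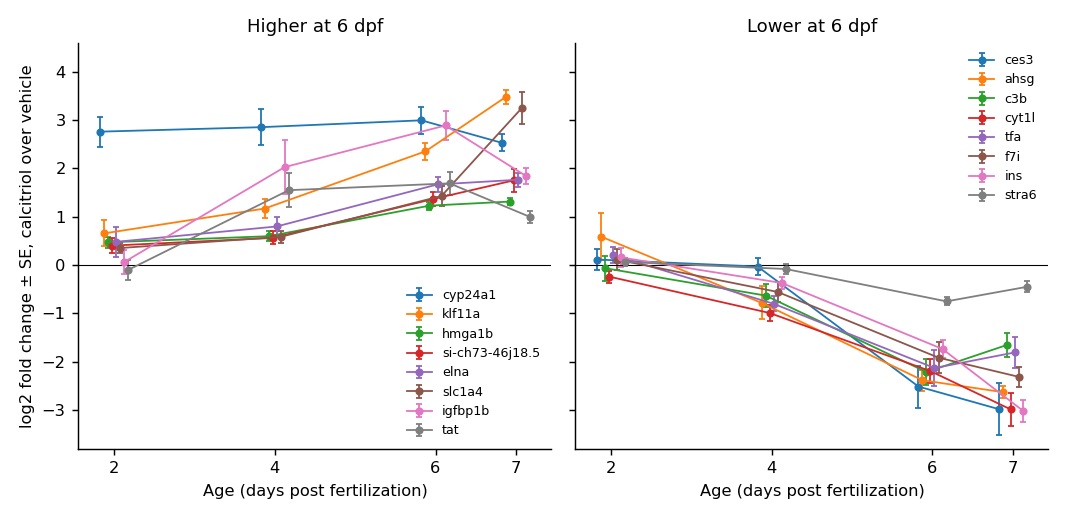
Log2 fold change with SE, calcitriol over vehicle, at 2, 4, 6 and 7 dpf for genes higher (left) and lower (right) at 6 dpf, each age fitted alone with 5 libraries a group. The gene cyp24a1 is at 2.76, 2.85, 2.99 and 2.53 at the successive ages, klf11a goes from 0.65 at 2 dpf to 3.48 at 7 dpf, and the genes on the right stand between -0.24 and 0.59 at 2 dpf.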

How the data were processed

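Per the labels' protocols, RNA was taken from sets of 25 to 30 whole embryos, poly-A selected, amplified with 15 PCR cycles and sequenced as 51-base read pairs on an Illumina HiSeq. CASAVA 1.4 and HTSeq 0.5.3p3 are named in the submitters' processing notes without role or order; the aligner and the strand setting are not given in the sources used here. Scaffold names in the table are those of assembly Zv9. The authors deposited raw counts per gene and per exon, without normalization, and these were analysed as deposited. Reads carry no molecular identifiers, so count floors cover counting error only.

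Genes were filtered with edgeR's filterByExpr, scaled by TMM and tested with edgeR 4.0.16 (glmQLFit, glmQLFTest) in R 4.3.3 on the 10 libraries of 2 dpf, with Benjamini-Hochberg adjustment over all genes tested and a threshold of 0.05. Standard errors and 95% intervals come from the same fit. CPM values are TMM-scaled. Ages were compared in a fit of all 40 libraries. The code was tested on simulated data. Alternatives were DESeq2 1.42.0, limma 3.58.1 (voom), other scaling factors and filters, blocks, summed pairs and each library left out. Genes absent from the count table, cyp27b1, cyp2r1 and casr among them, were not analysed here.

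Replicate numbers in the exon table differ from those in the gene table for treated libraries, and were matched through genes with equal totals. With the exon table's numbers, same-numbered libraries of the 2 groups deviated together (correlations 0.275 to 0.669, all above 0.1). For numbers 3 and 4, however, another treated library correlated better with the vehicle library, so pairing by single number is not established. With the label numbers the correlations ran from -0.32 to 0.34 and were not all positive. Sets B and C join numbers whose libraries were closer to each other (chi-square per degree of freedom 29.9 to 77.3) than to the rest of their group (109.6 to 340.9).

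The comparison, its gene lists and the sets were chosen with earlier results of these data known. Named genes are all members of the receptor and metabolism lists, the members of other lists with the smallest 4 p-values or highest 3 levels, and separated genes with a mean of at least 2 on the log2 CPM scale. Up to 10 genes each way that several fits called at 2 dpf or that changed most at 6 dpf were added, and 10 with the smallest p for the difference between 2 and 6 dpf. Not all of these are named in the text. Exceptions named after their values were seen are the genes called with the block of sets and klf9, npas4, fos, zgc-92851, zgc-175128, trpv6, stc2, fgf23, runx2b, sp7 and mgp. The gene stc1l was also added after its values were seen, and is not among the 89 named genes checked below. No sequence is shown.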

Additional observations from a re-analysis of the deposited data

Results flagged for a closer look

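In 8 of 178 groups of 5 libraries (89 named genes, 2 groups each), 1 library lay far from the other 4. Chance gives such a library in about 1 of 20 groups of independent libraries and genes, and 4.49% was seen. Most of the 8 were low values of set A, so that share does not show them to be random scatter. Vehicle replicate 1 was the low one for klf11a (43.6 CPM, others 106 to 123), nmnat1 (1.87, others 4.08 to 4.51) and adm2 (1.45, others 2.78 to 3.2). Treated replicate 5 was the low one for atp2b1a (93.0 CPM, others 108.6 to 112.6), cyp3a65 (0.84, others 1.58 to 1.79) and rxrab (1.73, others 3.56 to 4.08). These 2 libraries are set A, the shallow pair. Vehicle replicate 2 was low for fam20a (2.55 CPM, others 5.2 to 6.2), and treated replicate 2 was high for slc25a3a (1.46 CPM, others 0.873 to 0.993).

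The response of 24 named genes differed between 6 and 2 dpf in edgeR's test of the difference itself, where 2.43% of all genes tested did. Some of the 89 were named for a small p in this same test or for a large change at 6 dpf, so the count is raised by that choice and says nothing of the named genes as a group. The log2 response was higher at 6 dpf for igfbp1b (by 2.81), tat (1.78), klf11a (1.68), pth1a (1.64), mgp (1.55), adm2 (1.46), igfbp1a (1.43), si-ch73-46j18.5 (0.947), mycn (0.761), hmga1b (0.74) and bmp2b (0.564). It was lower at 6 dpf for the plasma protein genes ahsg (-3.05), tfa (-2.35), c3b (-2.17) and f7i (-2.04). It was also lower for ces3 (-2.65), cyt1l (-1.97), ins (-1.91), slc34a2a (-1.72), cyp3c4 (-1.52), stc2 (-1.41), krt4 (-0.861), stra6 (-0.833) and atp2a1 (-0.376). Adjusted p-values ran from 0.000117 for ins and mycn to 0.0486 for igfbp1a. For pth1a the 2 dpf log2 difference was -0.57 ± 0.34 and that at 6 dpf 1.08 ± 0.29 (adjusted p = 0.0318).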

How the results depend on the processing

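The rise of cyp24a1 had the same direction in every fit. It was called under DESeq2 (1 call in all), voom (1), other scaling factors and filters, 1 fit of 40 libraries, both replicate blocks and without set A. The call was lost with summed pairs (log2 fold change 2.74, 0 calls) and in 9 of 10 fits that left out 1 library, where values ran from 2.61 to 2.96 and calls from 0 to 1. The replicate block by exon-table numbers called 1 gene, as did the block by label numbers, and a block of the 3 sets called 8. It changed no other call among the genes named. Within that 3-set block, DESeq2 called 52 genes, voom 28, and edgeR without set A 1. Leaving out 1 library gave 1 to 11, with 4 without treated replicate 1. Genes without overlap between the groups, 0.242% of those tested with all libraries, made up 1.84% without set A, 1.88% with summed pairs and 0.377% to 1.06% with 1 library left out, since fewer libraries separate more easily.

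Counts of genes whose response differed from 2 dpf depended on the handling of the sets and on the tool, and the cause was not tested. At 4 dpf they numbered 35 without set A, 10 with voom and 34 with sets as a block. At 6 dpf they numbered 1120, 1334 and 1790, and at 7 dpf 3681, 4917 and 4907. The difference of the cyp24a1 response between 4 and 2 dpf, never called, was -0.16 with voom and -0.11 to 0.24 with 1 library left out. Among genes changed by at least 2-fold, 47.6% of those called at 6 dpf and 53.2% of those called at 7 dpf had the same sign at 2 dpf. The 2 directions differed. Of the genes higher at 6 dpf, 34 of 49 (69.4%) were above 0 at 2 dpf, beside 46.5% of all genes. Of those lower at 6 dpf, 65 of 159 (40.9%) were below 0, beside 53.5% of all genes. For 7 dpf these shares were 61.8% of 191 and 48.6% of 364. Genes under 2 on the log2 CPM scale, which include fgf23, gc and pth1a, were less often bounded within 2-fold. The share bounded was 99.4% at or above that level, beside 94.1% of all genes tested. The part that depth has in this was not tested.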
